A study of Mus musculus with 3 samples.

Results

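The stretches of the mouse genome described here are 100 kb bins of chromosomes 1 to 19 in which accessible regions away from gene ends lie closest together in hepatocytes, the main cells of the liver. They were chosen by a count over the peak lists of 3 ATAC-seq libraries, an assay in which Tn5 transposase cuts open chromatin. Overlapping peaks were merged, regions with a peak of all 3 libraries and more than 1 kb from any end of a protein-coding gene were kept, and a bin was called dense when it held 12 or more midpoints of these shared distal regions. Of 24614 bins, 702 were dense (2.85%), and they held 9767 of 68648 shared distal regions (14.2%). All counts of regions per bin come from the lists that chose the bins and are a description. The libraries are from liver hepatocytes of wild-type (WT) mice injected with the adeno-associated virus AAV8-TBG-Cre, labelled EV. That virus expresses Cre recombinase from TBG, a hepatocyte promoter, and the cells were taken 4 days after injection. The age and sex of the animals were not given in the sources used here, the labels name no floxed allele, and they do not say that the 3 libraries are separate animals, so their spread may be technical. The libraries of the virus that also carries Sox4, labelled Sox4OE, were not analysed here.

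Most accessible regions away from gene ends are enhancers, insulators or unannotated promoters. Enhancers bind transcription factors and raise the transcription of a gene that may lie far away. Groups of enhancers close together are known from many cell types near genes that define the cell, and in hepatocytes HNF4A, the FOXA and C/EBP proteins and nuclear receptors are the main factors that bind them. The nearest gene to a region need not be its target, and the files hold no measure of transcription.

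The peak lists held 108997, 119230 and 110455 peaks in replicates 1, 2 and 3, from 96066404, 116147036 and 117450440 tags. The library labelled EV replicate 2 stood apart at the Sox4 gene, where its highest pileup was 2544 against 128 and 134 in replicates 1 and 3. Without that library, 1277 bins were dense and 700 of the 702 bins were among them. Fewer libraries make the rule looser, so most bins stay by construction. The Sox4 bin held 6 shared distal regions and was not dense. By the markers of liver cell types, the 6 hepatocyte markers whose strand was known all had a peak of all 3 libraries within 1 kb of the gene's start (61.7% of all protein-coding genes of known strand did), and 4 of the 7 (Alb, Hnf4a, Cebpa, Fga) overlapped a dense bin. Among markers of known strand, starts were open in all 3 libraries for 1 of 2 cholangiocyte, 1 of 2 endothelial, 2 of 3 stellate, 0 of 3 Kupffer cell and 0 of 2 lymphocyte markers. The library labelled EV replicate 2 alone had 1 more open start than this for cholangiocyte, stellate and Kupffer cell markers, and replicates 1 and 3 had none more. The markers without such a peak were Krt7, Stab2, Des, Clec4f, Cd68, C1qb, Cd3e and Cd79a. In bulk samples, fewer open cells and less opening per cell cannot be told apart.

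Of the 9767 regions in dense bins, 264 (2.70%) held a whole promoter window of the RefSeq table, from 250 bases before to 50 after an annotated start, against 2.62% of the regions elsewhere. These were starts inside genes (135 regions) or of long noncoding RNAs (144 regions), with some regions counted in both. As a group they were taller than the rest, in dense bins and elsewhere. Their median pileup, the number of extended tags over a region's highest point, was 516, 566 and 643 in replicates 1 to 3, against 204, 190 and 250 for the other regions of dense bins. Outside dense bins the medians were 399, 502 and 486 with a window and 139, 145 and 165 without. The 4 windows below show what such internal starts look like in genes of liver function, and were picked after their values were seen. They are RefSeq sequence of GRCm38.p6 (mm10), 5′ to 3′ on the gene's strand. Capitals mark letters found on either strand: CCAAT, the NF-Y motif, and GGGCGG, the SP/KLF motif.
Hnf4a chr2:163546905-163547204 (plus strand): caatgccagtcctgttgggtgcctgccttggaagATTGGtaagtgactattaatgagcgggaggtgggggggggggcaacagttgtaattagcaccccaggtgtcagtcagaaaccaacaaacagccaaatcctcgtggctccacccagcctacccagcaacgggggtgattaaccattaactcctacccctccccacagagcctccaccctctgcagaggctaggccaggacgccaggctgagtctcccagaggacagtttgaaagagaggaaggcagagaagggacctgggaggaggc
Por chr5:135688895-135689194 (plus strand): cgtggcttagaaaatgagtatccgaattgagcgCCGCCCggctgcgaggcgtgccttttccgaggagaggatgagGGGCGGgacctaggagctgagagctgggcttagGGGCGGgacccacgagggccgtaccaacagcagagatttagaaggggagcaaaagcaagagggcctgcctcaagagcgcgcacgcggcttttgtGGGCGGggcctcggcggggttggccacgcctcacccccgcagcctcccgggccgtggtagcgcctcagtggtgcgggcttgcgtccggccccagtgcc
Srebf1 chr11:60210422-60210721 (minus strand): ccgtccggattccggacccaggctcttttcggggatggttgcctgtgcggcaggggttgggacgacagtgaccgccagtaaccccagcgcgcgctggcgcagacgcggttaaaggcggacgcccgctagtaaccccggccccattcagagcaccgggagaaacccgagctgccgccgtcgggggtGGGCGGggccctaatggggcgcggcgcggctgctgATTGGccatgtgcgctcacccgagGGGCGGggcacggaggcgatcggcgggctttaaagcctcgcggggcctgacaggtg
Tef chr15:81811164-81811463 (plus strand): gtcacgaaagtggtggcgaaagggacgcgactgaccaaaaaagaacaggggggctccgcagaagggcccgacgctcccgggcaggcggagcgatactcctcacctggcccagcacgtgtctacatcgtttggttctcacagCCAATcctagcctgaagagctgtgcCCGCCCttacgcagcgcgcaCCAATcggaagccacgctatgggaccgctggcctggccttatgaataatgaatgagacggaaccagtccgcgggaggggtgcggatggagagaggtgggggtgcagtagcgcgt
Hnf4a encodes the nuclear receptor HNF4A. Its window held CCAAT at 1 place, in a region with pileups of 713, 924 and 895. Por encodes the reductase that passes electrons to the cytochromes P450, and its window held GGGCGG at 4 places in a region with pileups of 934, 1216 and 1223. Srebf1 encodes SREBP1, a factor that turns on lipid synthesis genes, and its window held CCAAT at 1 place and GGGCGG at 2 in a region with pileups of 746, 1014 and 872. Tef encodes a clock-controlled PAR bZIP factor, and its window held CCAAT at 2 places and GGGCGG at 1 in a region with pileups of 776, 985 and 1044. All 4 regions were lowest in replicate 1, the library with the fewest tags.

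Over all 32851 promoter windows of the table, 37.4% held CCAAT and 35.7% held GGGCGG. In the 307 windows lying in regions of dense bins the shares were 32.6% and 42.0%, and in the 1860 windows in shared distal regions elsewhere they were 34.6% and 47.4%. Of the other letters searched on both strands, TTGCNNAA (C/EBP) was in 15%, TGTTTAC (FOXA) in 5.86%, TGANTCA (AP-1) in 6.84% and CAAAGTCCA (HNF4) in 0.977% of the windows in dense bins. In windows of shared distal regions elsewhere these were 13%, 5.22%, 7.90% and 0.753%. The share of GGGCGG was lower in dense bins than in the windows of regions elsewhere. Those of CCAAT and TTGCNNAA differed by little. TGTTTAC was in 18 of 307 against 97 of 1860 windows, TGANTCA in 21 against 147 and CAAAGTCCA in 3 against 14. These are too few to set side by side. The 307 windows lie in 264 regions, so some share a region and are not separate. The letters were chosen after some of these sequences had been seen, and no test was made.

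MicroRNAs are short RNAs that repress messages matching their seed, bases 2 to 8. Dense bins held 53 of 919 miRNA hairpins of the table (5.77%), in 45 bins, with 86 mature sequences and 81 seeds, of which 4 were shared by more than 1 hairpin. The hairpin in the bin with the most regions was that of miR-7661, inside Itpr1 in a bin of 21. The 5 below were picked by hand among the others after their bins were known. Each is the RefSeq mature sequence with its seed in capitals.
let-7b-5p: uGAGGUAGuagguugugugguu
let-7c-5p: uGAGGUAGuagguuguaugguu
miR-101a-3p: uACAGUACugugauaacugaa
miR-107-3p: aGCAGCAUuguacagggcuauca
miR-126a-3p: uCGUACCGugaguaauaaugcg
The let-7b and let-7c-2 hairpins lie in the Ppara bin, and both 5p arms carry the seed GAGGUAG. The miR-101a hairpin lies in a bin of 19 regions whose leading gene is Ak4, and miR-107 lies inside Pank1, a gene of coenzyme A synthesis, in a bin of 16. The miR-126a hairpin lies inside Egfl7, an endothelial gene, in a bin of 15. An annotated hairpin in a dense bin says nothing of the level of the miRNA.

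Dense bins formed the upper end of a continuous distribution and no separate class. There were 9120 bins with no shared distal region, 306 bins with 11 and 229 with 12, and the highest count was 27. At the edge of the rule, bins with 11 regions had 13.6, 14.3 and 14.0 distal peaks of replicates 1, 2 and 3 on average, and bins with 12 had 14.7, 15.4 and 15.1. These peaks come from the lists that set the threshold, so a small step between the 2 groups of bins follows from the rule. Of the dense bins 518 stood alone, while 75 runs had 2 neighbours together, 6 had 3 and 4 had 4. Thus 26.2% of dense bins touched another dense bin. The 2.85% of all bins that were dense is not a like measure, as a bin can touch 2 neighbours. Fixed borders also cut long genes into neighbouring bins. By chromosome the dense share ran from 1.5% of bins on chromosome 3 to 5.21% on chromosome 19.

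**Figure D1:**
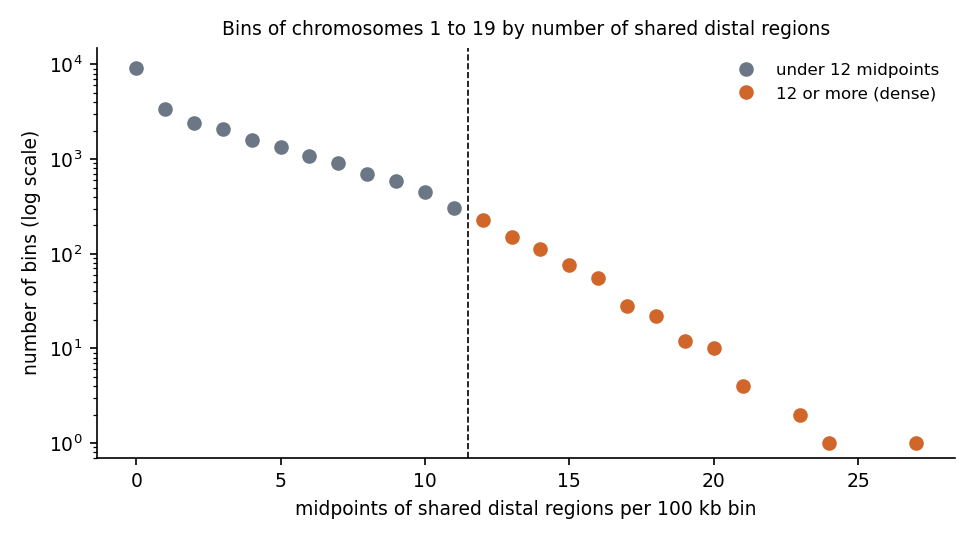
Number of 100 kb bins of chromosomes 1 to 19 (log axis) by the number of midpoints of shared distal regions they hold, from 0 to 27. The dashed line lies between 11 and 12 midpoints, and the 702 bins to its right are the dense bins.

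To ask how the density held in a library that had no part in the choice, bins were chosen from 2 libraries and the distal peaks of the remaining one were counted. In replicate 1 the 870 bins chosen without it held 4.54 times the mean of all bins. In replicate 2 the 1277 bins chosen without it held 3.86 times the mean, and in replicate 3 the 807 bins chosen without it held 4.63 times the mean (4.35 ± 0.421, SD, n = 3). The held-out library had 12 or more distal peaks of its own in 97.0%, 87.5% and 99.1% of those bins, against 7.2%, 8.59% and 7.57% of all bins. The lowest chosen bin held 9, 6 and 9 peaks. The chosen bins were thus dense in the held-out library each time, with the lowest share in the library labelled EV replicate 2. With 3 libraries an exact sign-flip test cannot go below a p of 0.25, so none is given.

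The regions of dense bins were taller than those elsewhere and had a lower fold enrichment. The median of each region's highest pileup was 208, 194 and 256 tags in dense bins and 141, 148 and 168 tags in the other bins, for replicates 1, 2 and 3. Dense bins were higher in all 3 libraries, at 1.48, 1.31 and 1.52 times (1.44 ± 0.112, SD, n = 3). Fold enrichment, the authors' ratio of a summit to its background, went the other way. Its median was 6.08, 5.54 and 6.09 in dense bins and 7.98, 7.30 and 7.91 elsewhere, at 0.762, 0.759 and 0.770 times (0.764 ± 0.00589, SD, n = 3). MACS takes as background a level over the whole genome or over the 10000 bp around the summit, whichever is larger. Shared distal regions covered 10.8% of dense bins and 3.01% of the other bins that held at least 1, a difference that follows from the count. The part of that covered share in the lower fold was not tested. Without the library labelled EV replicate 2, the ratios were 1.5 and 0.761.

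Both measures moved step by step with the number of regions in the bin. In replicate 1 the median pileup was 120 tags in bins with 1 to 5 regions, 166 with 6 to 11, 203 with 12 to 15 and 224 with 16 or more. Over the same 4 classes the median fold was 8.60, 7.45, 6.30 and 5.33. Replicate 2 went from 131 to 168, 189 and 211 tags, and replicate 3 from 141 to 200, 249 and 274 tags. Fold went from 7.90 to 4.88 in replicate 2 and from 8.46 to 5.24 in replicate 3. Over the 4 classes, pileup thus rose and fold fell in all 3 libraries.

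**Figure D2:**
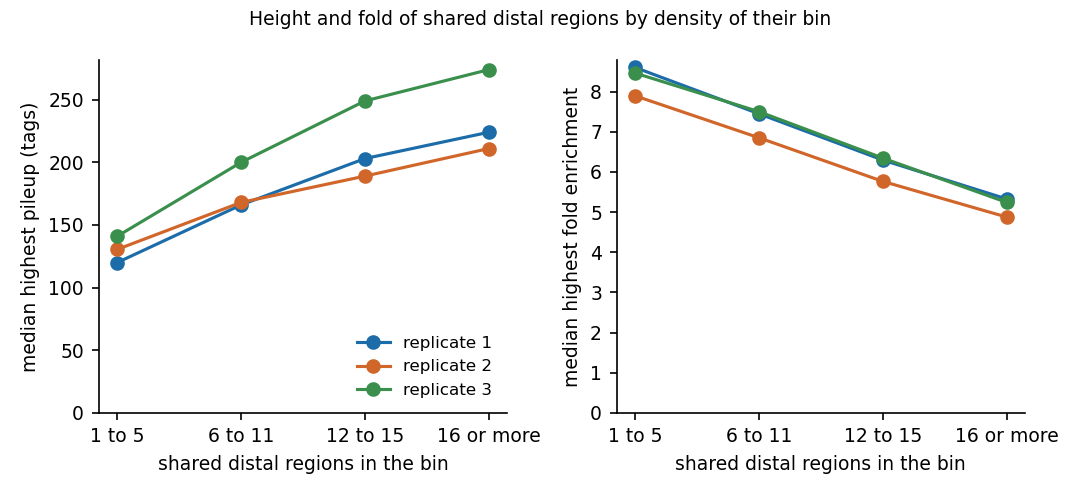
Median highest pileup in tags (left) and median highest fold enrichment (right) of shared distal regions, by the number of such regions in their 100 kb bin, with 1 line for each of the 3 EV libraries. Pileup rises and fold falls from the class with 1 to 5 regions to the class with 16 or more.

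Dense bins were gene territory without being rich in genes. Midpoints lay inside the span of a protein-coding gene for 67.6% of regions in dense bins and for 55.3% elsewhere. A dense bin overlapped 1.69 protein-coding genes on average, close to the 1.62 of other bins that held at least 1 region. That value pools bins with 1 to 5 regions, at 1.42, and bins with 6 to 11, at 2.14, so dense bins lay below the class just under them. The rule counts no region within 1 kb of a gene end, so more genes leave less room for counted regions. The part of this in the gene numbers was not tested. Only 1 gene was present in 344 dense bins, none in 45, and 5 or more in 23, with 8 the most. A single gene covered the whole bin in 137 cases, and in 415 bins 1 gene held most of the midpoints. In 63 dense bins no gene held any. Gene starts in dense bins had a peak within 1 kb in 82.9%, 84.4% and 83.1% of cases in replicates 1, 2 and 3 (83.5 ± 0.810%, SD, n = 3), against 63.5 ± 2.26% in other bins. Starts in bins with 6 to 11 regions were open in 80.3 ± 1.51% of cases, so the dense bins lay only slightly above the class just under them.

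The bin with the most shared distal regions, 27, lay at chromosome 1, 67100001 to 67200000, over Cps1, which encodes carbamoyl phosphate synthetase, the entry enzyme of the urea cycle. The libraries had 40, 33 and 31 distal peaks of their own there. The gene spans 67122426 to 67231267 and held 22 of the 27 midpoints. Its tallest distal region, 67116184 to 67117143, lies before the lower end of the gene and reached 910, 752 and 1216 tags. Regions in the bin followed each other closely, with a median gap of 1868 bp between neighbours.

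**Figure D3:**
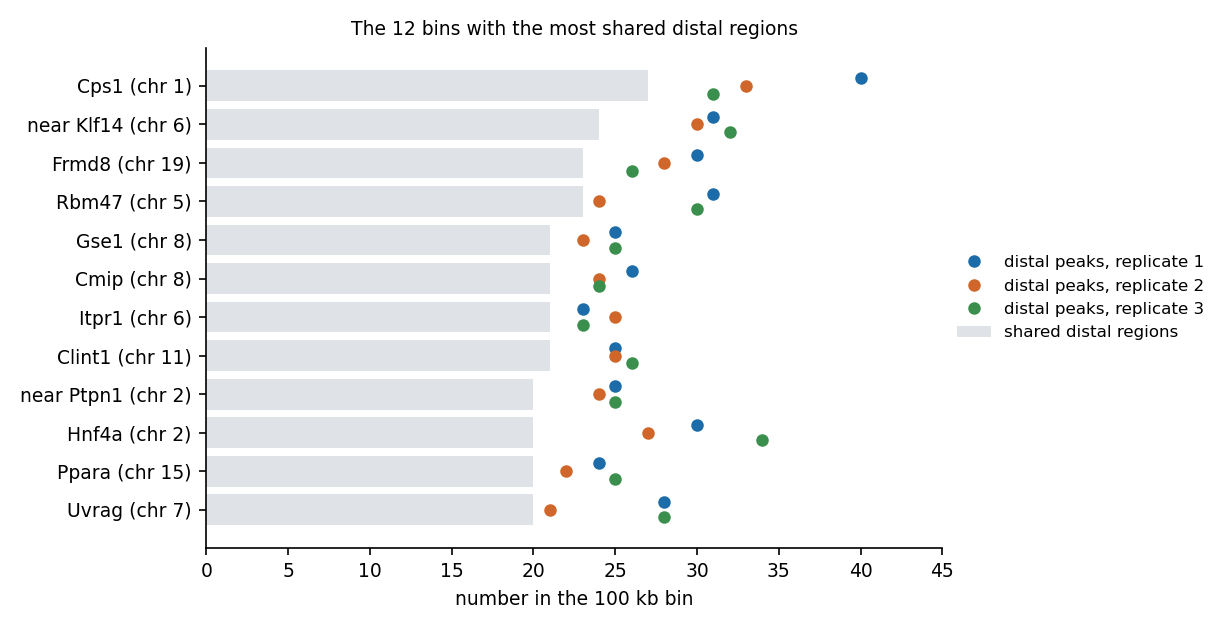
Shared distal regions (grey bars) and distal peaks of each EV library (points) in the 12 bins with the most shared distal regions. Each bin is named by the protein-coding gene with the largest count of its midpoints, which can be a minority of them. Equal counts go to the gene with the lower start. Where no gene holds any midpoint, the nearest gene is named. Ties at 20 regions were ordered by summed pileup rank. Each shared region holds a peak of every library by the rule, so points at or past the end of a bar follow from the choice. Cps1 leads with 27.

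Several of the leading bins overlapped genes of long noncoding RNAs, whose ends the rule does not remove. Dense bins overlapped 1.17 such genes on average, against 0.981 in bins with 6 to 11 regions and 0.577 in all bins not dense. The bin with 24 regions at chromosome 6, 31100001 to 31200000 overlaps no protein-coding gene and lies in Lncpint, a p53-induced noncoding RNA gene. The libraries had 31, 30 and 32 distal peaks there, and Lncpint as a whole held 33 shared distal regions, 32 of them in dense bins. The nearest protein-coding gene, Klf14, is 140769 bp from the closest region. A bin of 23 regions at chromosome 19, 5800001 to 5900000 held Neat1, the RNA that builds paraspeckles, and part of Malat1, an abundant nuclear RNA. Neat1 held 6 of the regions, with a median pileup of 694, 799 and 705 tags, and Malat1 held 2. The median over that bin's regions was 565, 643 and 600 tags, above the 208, 194 and 256 tags of all dense bins in every library. Frmd8 is the protein-coding gene that led the bin, with 1 midpoint.

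Rbm47 encodes an RNA-binding protein that takes part in the editing of apolipoprotein B mRNA, and its bin at chromosome 5 held 23 regions with 31, 24 and 30 distal peaks of the libraries. The gene held 29 midpoints of dense bins in all, and its tallest distal region reached 1056, 1158 and 1366 tags. Bins with 21 regions lay over Gse1, Cmip, Itpr1 and Clint1. Gse1 encodes a protein of a histone demethylase complex, Itpr1 a calcium channel of the endoplasmic reticulum and Clint1 a clathrin adaptor. All 21 midpoints lay inside the gene for Gse1, Cmip and Itpr1, and 15 for Clint1. Gse1 also spanned the run of 4 dense bins with the most regions, 66, of which 62 lay inside the gene.

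A run of 4 dense bins at chromosome 2, 167500001 to 167900000 held 64 regions around Cebpb, which encodes the liver and acute-phase factor C/EBP beta. Its last bin, with 20 regions and 25, 24 and 25 distal peaks of the libraries, has no protein-coding gene. It holds 7 long noncoding RNA genes, and Ptpn1 is 35147 bp from the closest region. Cebpb itself held no distal midpoint, but 15 midpoints of dense bins lay within 50 kb of it. The other runs of 4 held 59 regions around Scarb1 and 54 near Vegfa.

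Hnf4a and Ppara, which encode 2 nuclear receptors of liver metabolism, and the gene pair Uvrag and Dgat2 had bins of 20 regions. In all, 10 bins held 20 regions, and 4 of them enter the 12 leading bins by a higher summed rank of pileup, the rule for ties. The Hnf4a bin, chromosome 2, 163500001 to 163600000, held 30, 27 and 34 distal peaks of the libraries. Its median pileup was 285, 234 and 352 tags, and its tallest distal region, 163586417 to 163587883, lies past the gene's upper end and reached 796, 988 and 1071 tags. The antisense gene Hnf4aos held 5 of the midpoints. The Ppara bin, chromosome 15, 85700001 to 85800000, held 24, 22 and 25 distal peaks, with 9 midpoints inside Ppara and a tallest region of 976, 1047 and 1305 tags. The Uvrag bin held 28, 21 and 28 distal peaks. Its 20 midpoints included 7 inside Uvrag, a gene of autophagy, and 7 inside Dgat2, which catalyses the last step of triglyceride synthesis.

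**Figure D4:**
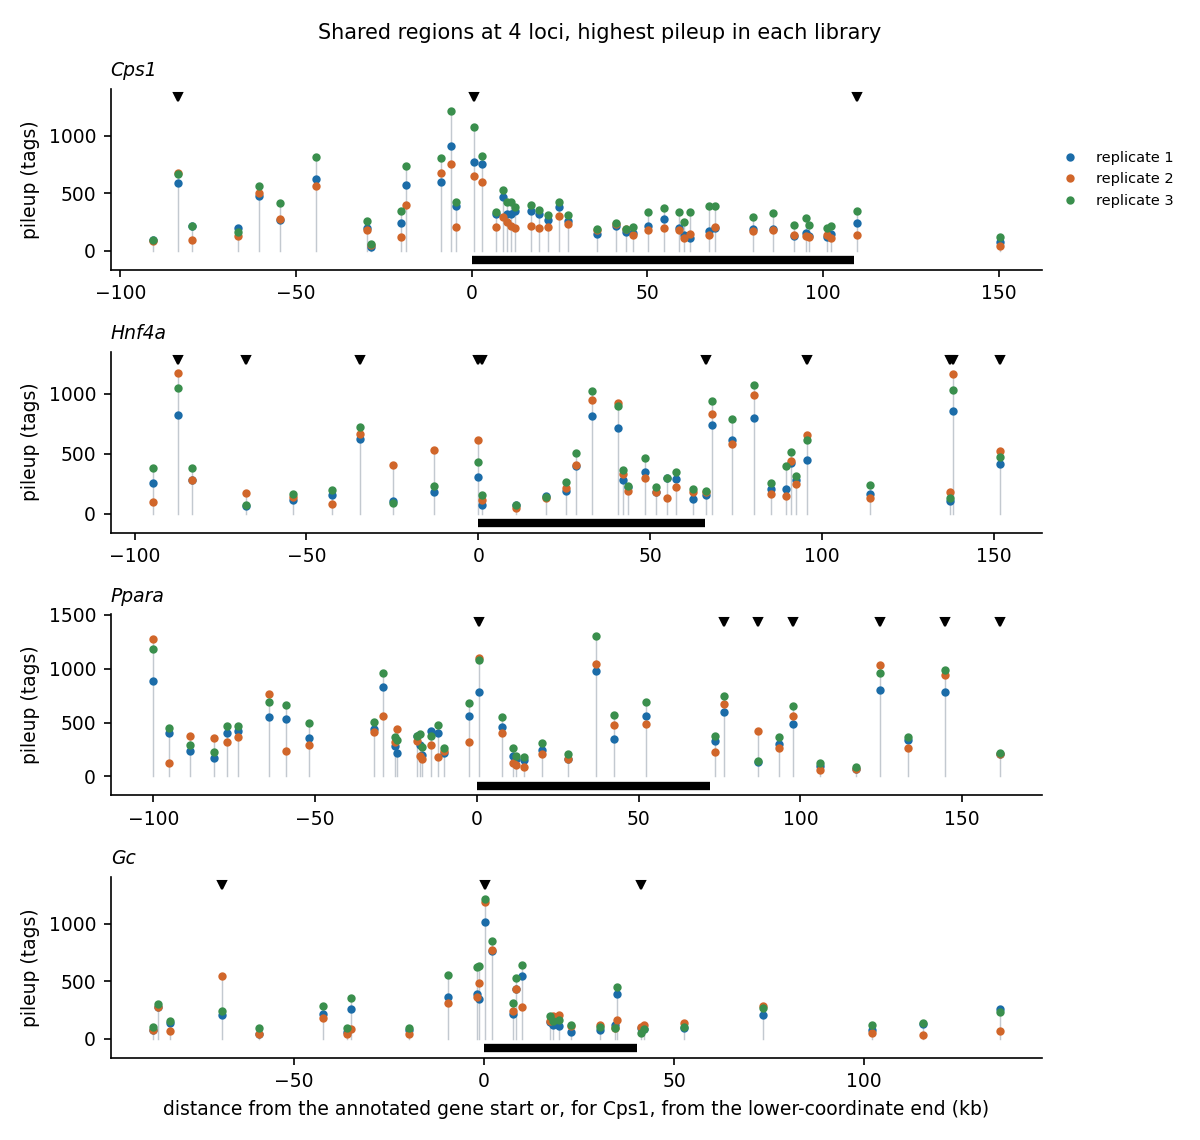
Shared regions at Cps1, Hnf4a, Ppara and Gc, with the highest pileup in tags of each EV library (points) by distance in kb from the annotated start or, for Cps1, from the lower-coordinate end. The black bar is the gene and triangles mark regions within 1 kb of a protein-coding gene end, which are not counted in the bins. Low and tall regions alternate through Hnf4a and Ppara, while inside Cps1 the tallest distal regions lie near its lower-coordinate end.

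Of 20665 protein-coding genes, 1114 (5.39%) overlapped a dense bin. Of the 16457 whose strand the RefSeq tables give, 609 (3.7%) had the start in one. Genes that overlapped a dense bin were long, with a median span of 41806 bp against 17491 bp for all genes, and a long gene meets more bins. The start measure does not depend on length in that way, but genes with a start in a dense bin also had a median span of 31114 bp. Of the 1114 genes, 101 were on 1 or more of 22 lists of liver genes, signalling genes and markers of other cells. On 15 lists the share in dense bins was above that of all genes, and by the start it was above on 16.

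Genes of transcription factors of hepatocytes had the highest share of the 22 lists, 14 of 35 (40%), and 10 of 28 starts. The top place depends on the setting: without the library labelled EV replicate 2 the share was 54.3% (19 of 35), under adhesion (57.7%), urea cycle (55.2%) and lipid genes (54.5%). Besides Hnf4a and Ppara, those with the most dense midpoints inside or within 50 kb were Prox1, a homeobox factor of liver development, with a bin of 16 regions, and Bcl6, a repressor that shapes sex-biased liver expression, with a bin of 14. Around Bcl6, 17 midpoints of dense bins lay inside the gene or within 50 kb. Also in dense bins were Rxra, the partner of many nuclear receptors, with a largest bin of 16, Stat5b, which carries the growth hormone signal, with 14, and Nr5a2, a bile acid regulator, with 14. Cebpa, Cebpb, Onecut2, Gata4, Hlf and Tef were in dense bins as well, with largest bins from 12 to 16. The list's median of the largest bin a gene meets was 10, against 4 for all genes.

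Secreted plasma proteins had 10 of 35 genes in dense bins (28.6%) and 8 of 29 starts, though their median span of 12204 bp is under that of all genes. Gc, which encodes the vitamin D-binding protein, led with a bin of 19 regions and 24, 26 and 25 distal peaks of the libraries. The Kng1 bin held 18 regions and the Alb bin 16. Alb encodes albumin, and its bin, which also holds Afp, had 17, 24 and 24 distal peaks and a median pileup of 405, 499 and 681 tags. The fibrinogen genes Fga, Fgb and Fgg share 1 bin of 13 regions, with 15, 15 and 16 distal peaks, and so count as 3 genes but as 1 place. Fgb had 13 midpoints of dense bins within 50 kb and none inside. Igfbp1 and Igf1, genes of the insulin-like growth factor axis, met bins of 16 and 13.

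Bile acid genes had 8 of 22 in dense bins (36.4%) and 5 of 17 starts. Slc10a1, the main bile salt uptake carrier, had a bin of 15 regions with 17, 21 and 18 distal peaks of the libraries. Abcb4 and Atp8b1, which handle phospholipids at the bile canaliculus, both met bins of 14, and the uptake carrier Slco1b2 one of 13. Cyp8b1, the sterol 12-hydroxylase, lay in a bin of 15 that is part of a run of 3. Genes of lipid metabolism had 12 of 44 (27.3%) and 6 of 32 starts. Of the lipid genes, 24 of 44 did without the library labelled EV replicate 2. Dgat2 met the highest bin, with 20 regions. Scarb1, the HDL receptor, had 22 midpoints of dense bins inside or within 50 kb, Abca1, a cholesterol exporter, had 16 and Elovl6, a fatty acid elongase, had 16. Srebf1 met a bin of 12, just at the threshold.

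Urea cycle, gluconeogenesis and amino acid genes had 5 of 29 in dense bins (17.2%), with 2 of 21 starts. Apart from Cps1 they included Pcx, pyruvate carboxylase, with 14 midpoints inside the gene, and Hpd and Hgd, enzymes of tyrosine breakdown. Drug metabolism genes had 7 of 40 (17.5%) and 5 of 33 starts. Cyp1a2 met a bin of 15 that it shares with Csk and Cyp1a1, while Por, Fmo5 and Ces3a met bins of 13. Iron, metal and acute phase genes had 4 of 24 (16.7%) but only 1 of 16 starts (6.25%, against 3.7% of all genes of known strand). They were led by the zinc and iron carrier Slc39a14 with a bin of 20 regions and 23, 21 and 25 distal peaks. Fth1, ferritin heavy chain, met a bin of 17. Without the library labelled EV replicate 2, 16 of 29 urea cycle, gluconeogenesis and amino acid genes (55.2%), 16 of 40 drug metabolism genes (40%) and 4 of 24 iron, metal and acute phase genes (16.7%) overlapped a dense bin, against 10.6% of all genes. The order of the lists thus changes in that setting, but leaving out a library also loosens the rule. With every library kept and a threshold of 10 midpoints, the shares of these lists, in the order given, were 44.8%, 37.5% and 33.3%. For all genes the share was then 12.2%. The part of that library itself in the changed order was not tested.

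Complement and coagulation genes were the liver list below all genes by span in the main setting. By the start they were above, at 1 of 24 (4.17%) against 3.7%. The entries C5 and F9 were not matched. C5 has the mouse symbol Hc, so Hc was not counted, though an annotated Hc start lay in a dense bin of 14. The fibrinogen genes and Kng1 were counted with the plasma proteins. Of the 32 complement and coagulation genes matched, only Mbl2 (3.13%) overlapped a dense bin, of 13 regions. Their starts were open in all 3 libraries in 23 of 24 cases, and their median largest bin was 8, between the 4 of all genes and the 10 of the plasma proteins. Without the library labelled EV replicate 2, 9 of 32 (28.1%) overlapped a dense bin against 10.6% of all genes, and without replicate 3 it was 3 of 32 (9.38%) against 6.3%. With bins shifted by 50 kb, 3 of 32 did against 5.75%, so the list's place below all genes depends on the setting. Leaving out the library labelled EV replicate 2 gave 19 of 35 transcription factors (54.3%), 19 of 35 plasma proteins (54.3%) and 9 of 22 bile acid genes (40.9%). All 3 lists stayed above all genes.

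**Figure D5:**
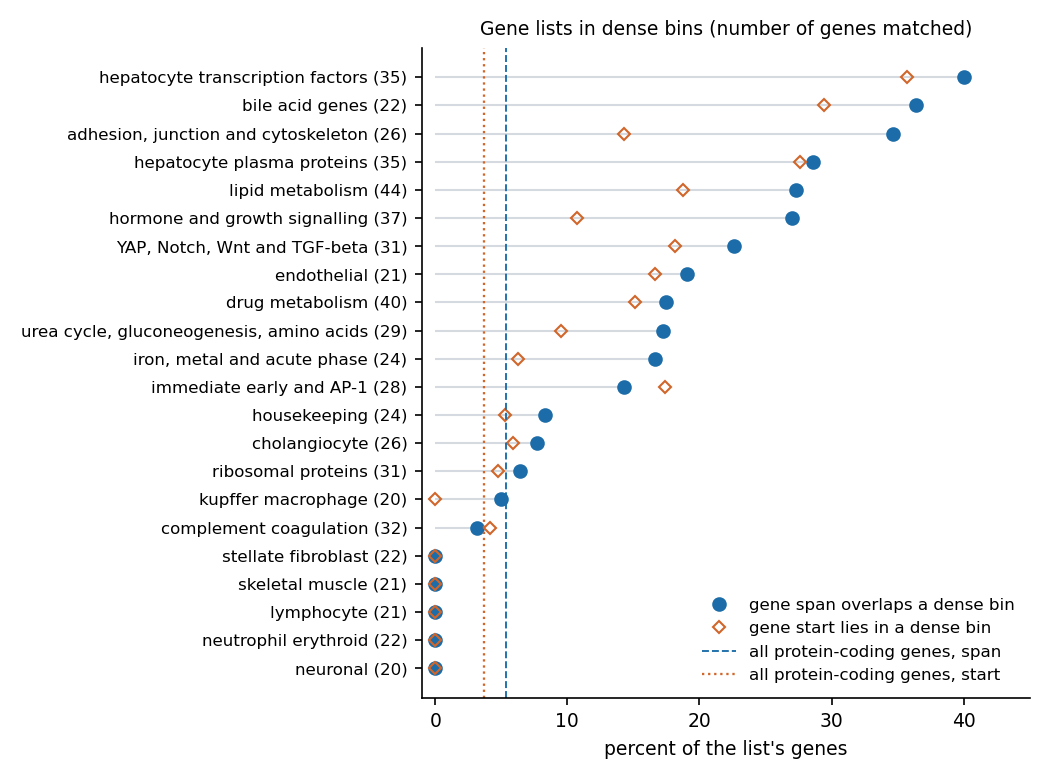
Percent of each gene list that overlaps a dense bin (filled points) or has its start in one (open diamonds), with dashed and dotted lines for all protein-coding genes at 5.39% and 3.7%. Transcription factors, bile acid and adhesion genes are at the top, and 5 lists (stellate, lymphocyte, neutrophil and erythroid, neuronal and muscle genes) are at 0.

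Genes of signalling and cell structure are long, and the measures by span and by start differed for some of the lists. Hormone and growth signalling had 10 of 37 genes in dense bins (27.0%) but 3 of 28 starts, and a median span of 49266 bp. Insr, the insulin receptor, held 17 midpoints in its gene, and its bin of 18 had 22, 23 and 25 distal peaks of the libraries. Egfr held 16 midpoints, Ghr, the growth hormone receptor, 15, and Stat3 7. The Egfr bin was dense in low regions, with a median pileup of 105, 77 and 104 tags in spite of 25, 23 and 25 distal peaks. Adhesion, junction and cytoskeleton genes had 9 of 26 (34.6%) but 3 of 21 starts, among them Lpp with 16 midpoints, Cdh1 (E-cadherin) with 10 and Myh9 with 9. Genes of YAP, Notch, Wnt and TGF-beta signalling had 7 of 31 (22.6%) and 4 of 22 starts (18.2%), with a median span of 72453 bp. Tcf7l2, a factor of Wnt signalling, held 25 midpoints, Notch2 15, Lgr4 14 and Tcf7l1 9. Immediate early genes are short, with a median span of 4005 bp, and had 4 of 28 (14.3%) and 4 of 23 starts (17.4%), namely Gadd45b, Dusp6, Ier5 and Jund. None of those 4 held a dense midpoint, and their bins held 17, 14, 12 and 12 regions outside them. Without the library labelled EV replicate 2 the counts by span were 19 of 37, 15 of 26, 11 of 31 and 7 of 28 for these 4 lists in the order given.

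Genes used in all cells were near the background in this setting. Ribosomal protein genes had 2 of 31 (6.45%, Rplp0 and Rps14) and housekeeping genes 2 of 24 (8.33%, Rab7 among them), although 20 of 21 ribosomal and 19 of 19 housekeeping starts were open in all 3 libraries. Of markers of other cells, none of 22 stellate, 21 lymphocyte, 22 neutrophil and erythroid, 20 neuronal and 21 muscle genes overlapped a dense bin. Cholangiocyte markers had 2 of 26 (7.69%). Among them was Lamb3, a laminin chain whose start had no peak of all 3. Without the library labelled EV replicate 2, the ribosomal list had 4, the housekeeping list 5 and the cholangiocyte list 4 in dense bins, and with bins shifted by 50 kb the housekeeping list had 0 and the lymphocyte list 2 of 21. Kupffer cell markers had 1 of 20 (5%), Ly86, which held no dense midpoint and whose start had no peak of all 3.

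Endothelial markers had 4 of 21 in dense bins (19%), but with bins shifted by 50 kb 1 of 21 (4.76%), below the 5.75% of all genes. They had 6 of 21 without the library labelled EV replicate 2. Lyve1 and Egfl7 met bins of 15 regions, and Stab2 and Eng bins of 12. At the outermost annotated start, Stab2, Eng and Egfl7 had no peak of all 3 libraries, and the strand of Lyve1 was not known. A further annotated start inside Egfl7 did lie in a shared distal region, with pileups of 115, 239 and 158 in replicates 1 to 3. The bins of Lyve1, Egfl7 and Eng were led by other genes, Rnf141, Agpat2 and St6galnac6, with 2, 1 and 3 midpoints inside the endothelial gene. Stab2, a scavenger receptor of liver sinusoids, was different, as 9 of its bin's 12 midpoints lay in the gene. Those regions were low, with a median over the bin of 143, 92 and 170 tags against 208, 194 and 256 tags over all dense bins. Over all 21 markers, 3 of 12 starts were open, and the part of endothelial cells in the Stab2 bin was not tested.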

How the data were processed

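ATAC-seq peak lists of 3 EV libraries were used. Per the submitters' processing notes, the build was mm10 and the tools were Bowtie2, Picard, deepTools and MACS2. Peaks were called on each library with MACS 2.2.7.1 and no control, per the file headers, with tag ends shifted by 100 bp, extended to 200 bp, duplicates kept and a q cutoff of 0.05. The signal, as deposited, is a summit's pileup in tags and is not scaled for depth. The −log10 q and −log10 p values and the fold enrichment ratio were also deposited by the authors, and were used only to describe or filter peaks within a list.

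Summits of 1 peak were joined, peaks overlapping by at least 1 bp were merged, and genes came from the RefSeq tables of GRCm38.p6. No genome sequence was used. Depth is known only as total tags, and a region without a peak has no value, so no interval is given. The summaries used Python 3.11.15 and pandas 2.3.3 and were checked on simulated data. Bins, gene lists, motif letters and printed sequences were chosen with earlier results of these data known.

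The genes named come first from the 12 bins with the most midpoints. In each, it is the gene with the largest count of midpoints or, where no gene holds any, the nearest. In each list, up to 4 genes in dense bins with the most dense midpoints inside or within 50 kb were named. Alb, Hnf4a and Sox4 were always named. Other genes were named after their values were seen. Some genes that the rule takes are counted but not reported by name here. Strand was known for 16457 of 20665 protein-coding genes. A gene's start was taken as its outermost end on that strand, so further starts inside a gene do not enter the start counts. The alternatives varied the libraries, peak thresholds, overlap, gene-end distance, bin start and bin threshold.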

Additional observations from a re-analysis of the deposited data

How the results depend on the processing

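No paired analysis was possible because there is 1 group. Leaving out each library gave 807 to 1277 dense bins, 15.8 to 23.0% of shared distal regions, 1301 to 2191 genes, pileup ratios of 1.4 to 1.5, fold ratios of 0.760 to 0.772, held-out ratios of 3.64 to 4.01 and 14 to 16 lists above all genes. The widest values are those without replicate 2, with 1277 bins and 2191 genes. Peaks at a −log10 q of 10 or more gave 391 bins, 8.95% of regions, 617 genes, a fold ratio of 0.741 and a held-out ratio of 4.87. A threshold of 10 midpoints gave 1458 bins, 25.7%, 2516 genes, 0.787 and 3.82, and one of 15 gave 211 bins, 5.10%, 317 genes, 0.707 and 5.11, in the same order. Gene ends of 500 bp changed the share to 15.5%. Gene ends of 2500 bp gave 12.1% and a fold ratio of 0.756, and shifted bins a fold ratio of 0.755. With the ends of all genes removed, noncoding ones included, 493 bins, 776 genes and 10.7% of regions were left, with a fold ratio of 0.751.

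The 50000 strongest peaks of each library left 6 bins, 0.279% of regions and 8 genes, with a pileup ratio of 1.57, a fold ratio of 0.599, a held-out ratio of 8.67 and 0 lists above all genes. Fewer peaks enter there by construction. Rbm47 was the 1 named gene in a dense bin. Of the 66 named genes, 63 overlapped a dense bin in the main setting and when any library was left out. Leaving out a library loosens the rule, so that count says little of stability. With bins shifted by 50 kb 40 did, so the place of a bin border decides for single genes. The pileup, fold and held-out ratios kept their direction in every setting. Of the 22 gene lists, with the 50000 peaks left aside, 11 were above all genes in every setting, 3 in none, and 8 changed sides (complement and coagulation, endothelial, housekeeping, ribosomal, cholangiocyte, Kupffer cell, lymphocyte, and neutrophil and erythroid genes). Depth limits the lists: a weak region missed in 1 library is not counted.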

Other observations

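The X chromosome lies outside the rule. It had 1364 shared distal regions in 1707 bins, a mean of 0.799 per bin against 2.79 on chromosomes 1 to 19, and 4 bins of 12 or more. The highest X bin held 16 regions, at 140500001 to 140600000, and overlaps Tsc22d3, which encodes the glucocorticoid-induced protein GILZ. The number of X copies in these libraries was not given in the sources used here.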
